A study of Mus musculus with 3 samples.

Results

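The serum amyloid A and orosomucoid genes described here are 7 mouse genes of the acute phase response: Saa1, Saa2, Saa3, Orm1, Orm2, Hp and Lrg1. They were taken by symbol from the gene list of the deposited count matrices, where all 7 of the 31053 genes were found, and their raw UMI counts were summed by lineage and library. A UMI, or unique molecular identifier, stands for 1 transcript molecule that was captured. The samples are non-parenchymal cells, the fraction enriched for cells other than hepatocytes, from perfused livers of female Balb\c mice. There are 3 libraries, made with the 10x droplet 3' v2 chemistry, 1 for each group: mice injected orthotopically with PBS as the control, and mice collected 4 or 21 days after orthotopic injection of 4T1 cells, a mammary carcinoma line of the same strain. All mice were injected at 8 weeks of age. The control and day 4 libraries are labelled 8 weeks and the day 21 library 11 weeks. The number of mice in a library and the collection day of the control are not given in the sources used here, so day 21 differs from the control in age as well as in tumour. Because each group is a single library, differences between groups could be neither replicated nor tested. Levels are given as CPM, the UMIs of a gene per 1000000 UMIs of the same cells. Intervals are 95% intervals that cover counting error only. They are exact, except that those of ratios to the transcripts of a source cell type use a normal approximation on the log scale.

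The acute phase response is the change in plasma proteins that follows inflammation, infection or a growing tumour, and in mammals the liver is its main source. Cytokines of the interleukin 6 and interleukin 1 families reach hepatocytes and act through the transcription factors STAT3, C/EBP and NF-kB on genes such as Saa1 and Saa2. Serum amyloid A1 and A2 are apolipoproteins of high-density lipoprotein that circulate in the blood. Serum amyloid A3 is made in mice mainly outside hepatocytes, for example by macrophages and fat cells. The orosomucoids, or alpha-1-acid glycoproteins, bind small lipophilic molecules and drugs. Haptoglobin, the product of Hp, binds free haemoglobin and is also stored in neutrophil granules. Leucine-rich alpha-2-glycoprotein, the product of Lrg1, is made by hepatocytes, neutrophils and endothelial cells, and in mice it promotes the growth of blood vessels through TGF-beta signalling.

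In the GENCODE annotation of GRCm38, Saa3 (7:46711998-46715700, minus strand), Saa1 (7:46740497-46742980, minus strand) and Saa2 (7:46751790-46754313, plus strand) lie close together on chromosome 7, with Saa4 between Saa3 and Saa1. Orm1 (4:63344560-63348163) and Orm2 (4:63362449-63365878), both on the plus strand, lie on chromosome 4 on either side of Orm3. Hp (8:109575128-109579172) and Lrg1 (17:56119678-56122001) are on the minus strands of chromosomes 8 and 17. Over the last 200 bases of the longest coding transcripts, the part a 3' assay reads, Saa1 and Saa2 were 90.1% identical and Orm1 and Orm2 97%. Orm3 was 88.1% identical to Orm1 and 89.1% to Orm2. How the counts divide within Saa1 and Saa2, and within Orm1, Orm2 and Orm3, is therefore uncertain, whereas Saa3 was 44.9% identical to Saa1 there.

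The stretches upstream of the start site are shown because Saa1 and Saa2 had high levels in the same cells of the day 21 library while Saa3 had its own pattern. RefSeq promoter sequences (GRCm38.p6) were found for 5 of the 7 members, with none for Orm1 and Hp. Up to 250 bases before the RefSeq start are printed 5′ to 3′ on the strand of the gene, leaving out bases that lie inside the GENCODE gene. They are Saa1 at chr7:46742981-46743230 (minus), Saa2 at chr7:46751583-46751789 (plus), Saa3 at chr7:46715701-46715926 (minus) and Orm2 at chr4:63362199-63362448 (plus). Capitals mark a match to the C/EBP motif TTGCNNAA on either strand or to the TATA motif TATAAA on the printed strand.
Saa1: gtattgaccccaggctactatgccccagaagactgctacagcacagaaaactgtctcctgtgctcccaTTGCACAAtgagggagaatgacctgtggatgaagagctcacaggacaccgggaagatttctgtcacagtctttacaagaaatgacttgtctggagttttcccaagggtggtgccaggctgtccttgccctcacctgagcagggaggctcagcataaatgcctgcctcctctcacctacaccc
Saa2: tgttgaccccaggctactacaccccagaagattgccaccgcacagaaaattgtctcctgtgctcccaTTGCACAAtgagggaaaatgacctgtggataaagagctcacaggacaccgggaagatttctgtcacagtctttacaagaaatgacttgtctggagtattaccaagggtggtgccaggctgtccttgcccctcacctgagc
Saa3: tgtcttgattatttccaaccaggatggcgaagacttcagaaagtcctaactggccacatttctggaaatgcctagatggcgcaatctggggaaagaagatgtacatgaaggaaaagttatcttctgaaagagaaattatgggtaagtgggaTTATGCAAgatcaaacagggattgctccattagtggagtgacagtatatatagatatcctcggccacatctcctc
Orm2: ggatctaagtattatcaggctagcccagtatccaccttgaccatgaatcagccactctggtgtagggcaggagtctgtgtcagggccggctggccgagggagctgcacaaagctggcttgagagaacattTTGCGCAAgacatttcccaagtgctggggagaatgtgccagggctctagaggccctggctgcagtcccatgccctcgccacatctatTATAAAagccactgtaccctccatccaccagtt
The 250-base stretches of Saa1 and Saa2 were 94.8% identical, against 48.2% for Saa1 and Saa3. The C/EBP letters occurred once in each of these 4 promoters, beginning 182 bases before the start in Saa1, 183 in Saa2, 99 in Saa3 and 120 in Orm2, and not in that of Lrg1. They occur in 9.56% of the 32851 RefSeq promoters of the same length. The STAT letters TTCNNNGAA (7.02% of promoters) and the NF-kB letters GGGA and CC with 4 bases of any kind between (17.6%), both searched on both strands, matched in none of the 5. The TATA letters, in 7.59% of promoters, began 33 bases before the start of Orm2. A match says only that these letters are in this window.

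The control library held 6489 barcodes and 27191082 UMIs, the day 4 library 9175 and 34833820, and the day 21 library 12338 and 51913215. After filtering, 4745, 5541 and 9979 cells remained, and pairs of libraries shared 13 to 32 barcode sequences. Lineages were gated by 10 marker genes each, none of them a member. In every library all 10 defining markers were detected in the gates of hepatocytes, endothelial cells, Kupffer cells (the resident macrophages of the liver), monocytes, granulocytes, T cells and B cells. The gates held 100, 317 and 166 hepatocytes, 53, 188 and 4429 granulocytes, and 29, 29 and 1010 monocytes, in the order control, day 4, day 21. A hepatocyte had 5% or more of its UMIs in hepatocyte markers. Cells with a share of 5 to 10% numbered 54, 236 and 139 in the same order. The hepatocyte levels below may therefore rest largely on cells near the limit of the gate. Markers of granulocytes were detected in other gates at day 21: their summed level was 6090 CPM in hepatocytes, 3281 in endothelial cells, 6647 in Kupffer cells and 1933 in B cells, against 3.88, 24.4, 49.3 and 5.29 in the control. All 10 of those markers were detected in each of these gates at day 21, and 2 to 9 of 10 in the control.

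The lineages that held these transcripts differed between libraries. At day 21 hepatocytes were 1.66% of kept cells and held 74.6% of Saa1, 73.4% of Saa2 and 67.4% of Orm2 UMIs. Granulocytes were 44.4% of kept cells and held 92.3% of Lrg1, 80.95% of Hp, 74.7% of Orm1 and 67.7% of Saa3 UMIs, and monocytes held a further 26.25% of Saa3. In the control, where granulocytes were 1.12% of cells, hepatocytes held 66.9% of Orm1 and 54.1% of Hp, and endothelial cells held 41.2% of Lrg1. In the control Saa3 had 9 UMIs over all deposited barcodes. Of the 86 control Saa1 UMIs in kept cells, hepatocytes held 43.0% and cells in no gate 39.5%. The levels below are given within lineages.

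**Figure D1:**
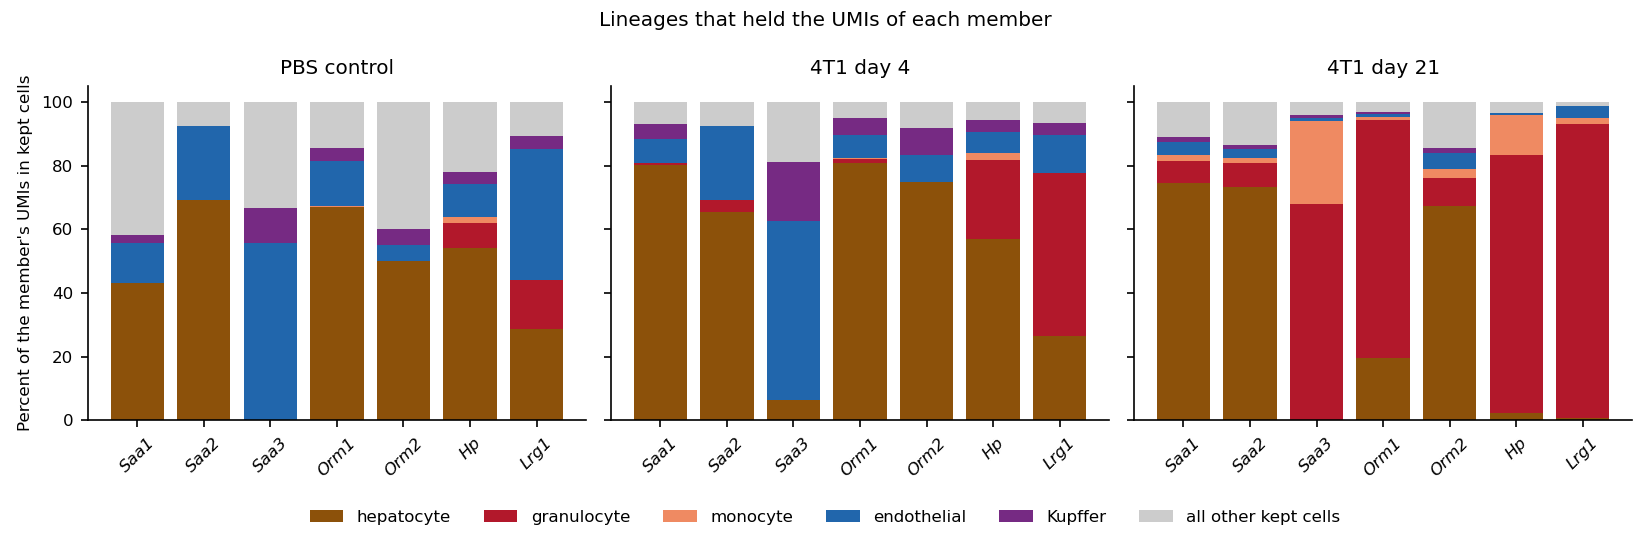
Percent of each member's UMIs in kept cells (vertical axis) that fell in each lineage, for the control, day 4 and day 21 libraries. At day 21 granulocytes held 92.3% of Lrg1 and 80.95% of Hp, while hepatocytes held 74.6% of Saa1 and 73.4% of Saa2.

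Saa1 and Saa2, the circulating serum amyloids, were the members with the widest differences in hepatocytes between day 21 and the control. Saa1 stood at 47.9 CPM in the PBS control (37 UMIs), 99.4 at day 4 (137 UMIs) and 1876 at day 21 (630 UMIs). Saa2 stood at 11.7 in the PBS control (9 UMIs), 12.3 at day 4 (17 UMIs) and 1150 at day 21 (386 UMIs). Day 21 was thus far above both other libraries for both genes, and day 4 lay above the control for Saa1 only. Over the control, Saa1 was 38.7-fold (28.1 to 56.2) and Saa2 93.6-fold (51.4 to 217) higher at day 21. Over day 4, Saa1 was 18.8-fold (15.7 to 22.9) and Saa2 90.7-fold (57.5 to 162) higher.

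Both serum amyloids were detected in many hepatocytes at day 21, although most of their UMIs lay in few of them. Of 100 control hepatocytes, 13 held a Saa1 UMI and 2 a Saa2 UMI, and 0 held both. Of 317 hepatocytes at day 4, 44 held Saa1 and 7 held Saa2, and 4 held both. Of 166 hepatocytes at day 21, 88 held Saa1 and 70 held Saa2, and 50 held both. The median depth of these cells was 1162 UMIs in the PBS control, 940 at day 4 and 853 at day 21, so the largest shares stand at the lowest depth. In B cells, taken to lack the genes, 9 of 656 at day 21 held a Saa1 UMI and none a Saa2 UMI, at a median depth of 1529 UMIs. With hepatocytes thinned to 1000 UMIs, 74.6% of 63 held Saa1 at day 21, against 5.36% of 56 in the control. The control sums rest on few cells, as 1 hepatocyte held 40.5% of the Saa1 UMIs and 1 held 88.9% of the Saa2 UMIs. At day 21 the 27 hepatocytes with 5 or more Saa1 UMIs held 82.4% of them. The 20 with 5 or more Saa2 UMIs held 79.5% of those. Granulocytes of the day 21 library had 2.39 CPM of Saa1 and 1.64 of Saa2, far below the hepatocyte levels.

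Orosomucoid genes differed in hepatocytes by unequal factors. Orm2 stood at 12.9 CPM in the PBS control (10 UMIs), 13.1 at day 4 (18 UMIs) and 277 at day 21 (93 UMIs). Its level at day 21 was 20.5-fold (11.1 to 46.1) that of the control and 20.8-fold (12.7 to 37.4) that of day 4, which did not differ from each other beyond counting error. Orm1 stood at 781 in the PBS control, 825 at day 4 and 1605 at day 21, with 603, 1138 and 539 UMIs. Its level at day 21 was 2.06-fold (1.83 to 2.31) that of the control, a log2 ratio of 1.04 that ran from 0.74 to 1.05 under the alternative settings and so fell on both sides of the 2-fold line. Hepatocytes with an Orm1 UMI were 55 of 100 in the PBS control, 145 of 317 at day 4 and 114 of 166 at day 21.

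Hp and Lrg1 were also higher in day 21 hepatocytes. Hp stood at 2150 CPM in the PBS control, 1864 at day 4 and 4074 at day 21, so that day 4 was the lowest. Its level at day 21 was 1.90-fold (1.76 to 2.04) that of the control and 2.19-fold (2.05 to 2.34) that of day 4. Lrg1 stood at 152 in the PBS control, 221 at day 4 and 679 at day 21, with 117, 305 and 228 UMIs. Its level at day 21 was 4.47-fold (3.57 to 5.65) that of the control. Granulocytes have both transcripts, so both were also set beside S100a8 and S100a9, 2 abundant granulocyte transcripts chosen after seeing the data. Per 1000 UMIs of S100a8 and S100a9, day 21 hepatocytes held 771 Hp and 129 Lrg1 UMIs, against 6.82 Hp and 4.10 Lrg1 UMIs in granulocytes. At the granulocyte ratio, the 1774 S100a8 and S100a9 UMIs of the hepatocyte gate would come with 12.1 Hp and 7.27 Lrg1 UMIs, where 1368 and 228 were counted. Day 21 B cells also stood above this ratio for both genes, and it is a mean over granulocyte stages. Lrg1 stood at 74.6 CPM at the primary and 2174 at the mature stage. The part of granulocyte RNA in the hepatocyte values was not tested beyond these ratios.

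**Figure D2:**
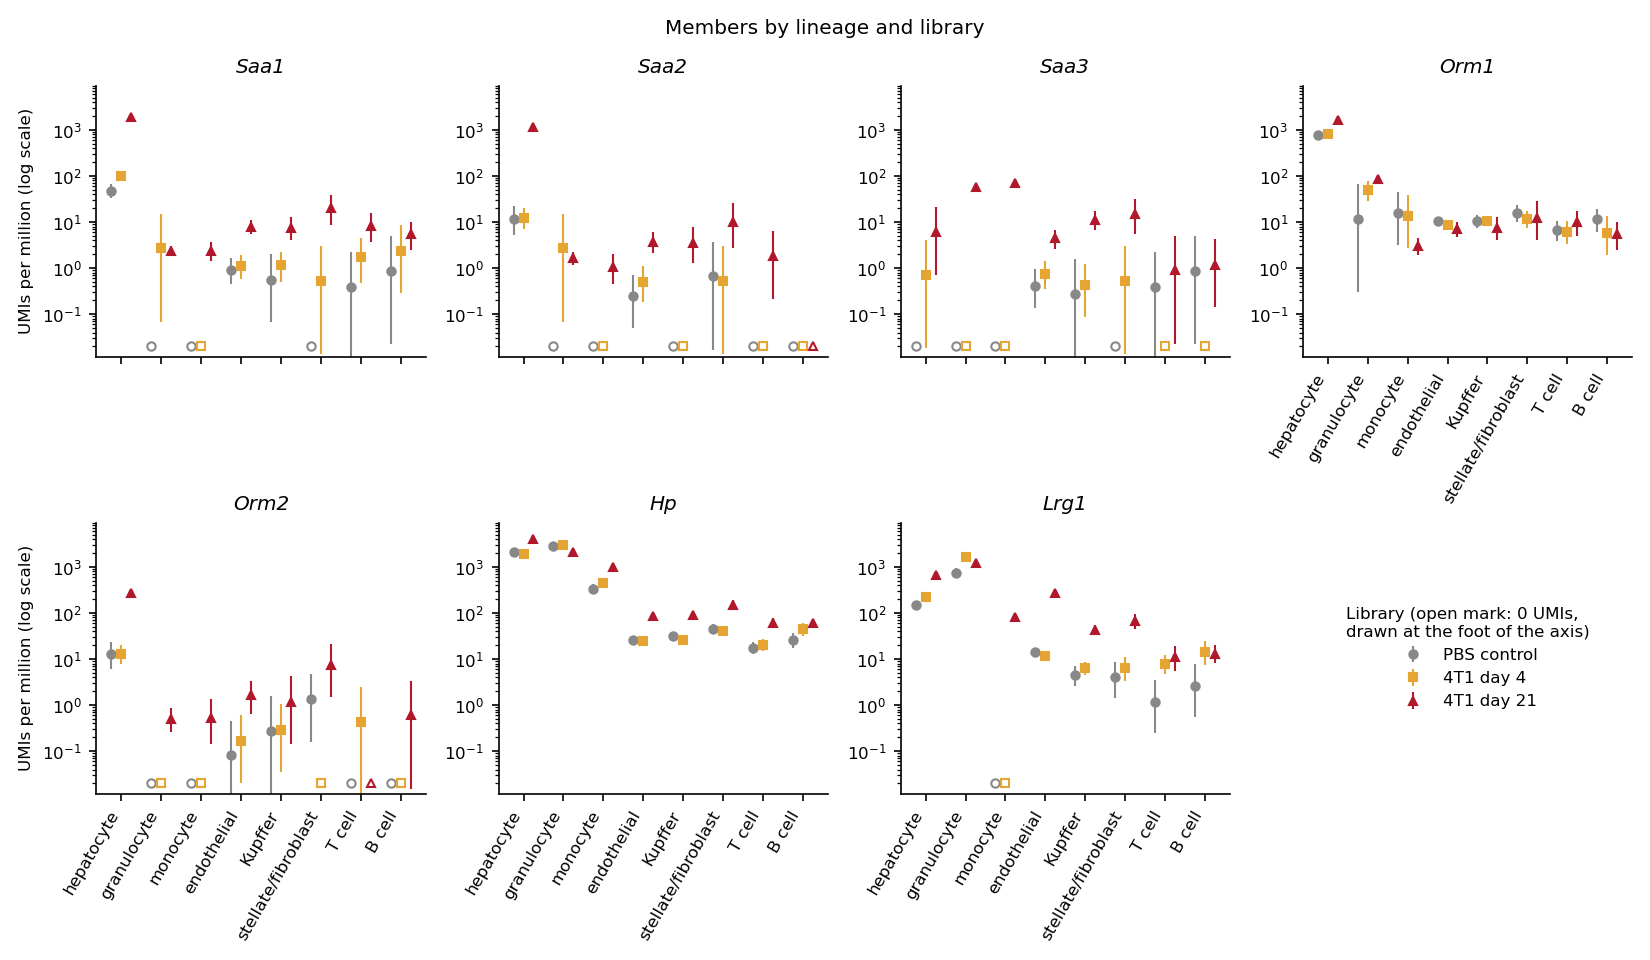
CPM (vertical axis, log scale) of each member in 8 lineages of the control, day 4 and day 21 libraries, with exact 95% Poisson intervals. The day 21 mark stands above the others for Saa1, Saa2, Orm2 and Lrg1 in hepatocytes, for Saa3 in granulocytes and monocytes, and for Lrg1 in endothelial cells.

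For a count of members, a gene was measured when it had 20 or more UMIs in both libraries together. It was taken as higher or lower when it also differed 2-fold or more with an interval that did not reach equality. A gene with few UMIs in 1 library could therefore be measured through the library where it was high. At day 21 over the control, 5 of the 6 measured members were higher in hepatocytes and 0 lower, beside 7.58% of all measured genes higher and 4.16% lower. Hp missed the 2-fold line and Saa3, with 2 UMIs at day 21 and 0 in the control, was not measured. With each cell thinned to 1000 UMIs the count was 3. The median log2 ratio of these 6 members was 3.26, beside 0.21 over all measured genes. Over day 4, 5 of 6 were higher at day 21 beside 4.84% of all genes, with Hp in place of Orm1. At day 4 over the control, 1 of 6 was higher beside 2.6% of all genes, and 0 lower, beside 2.21%. That member was Saa1 at 2.05-fold (1.43 to 3.07), and the 15 UMIs in 1 control hepatocyte enter its control sum. Its log2 ratio of 1.04 was 0.15 with each cell thinned to 1000 UMIs and 0.27 in hepatocytes from clusters. Lrg1 in hepatocytes was 1.46-fold (1.18 to 1.82) the control level at day 4. The hepatocyte gate of the control held 49 cells when barcodes over 20% mitochondrial UMIs were left out, too few for a ratio. In those 49 cells Saa1 had 5 UMIs, a level of 11.7 CPM.

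**Figure D3:**
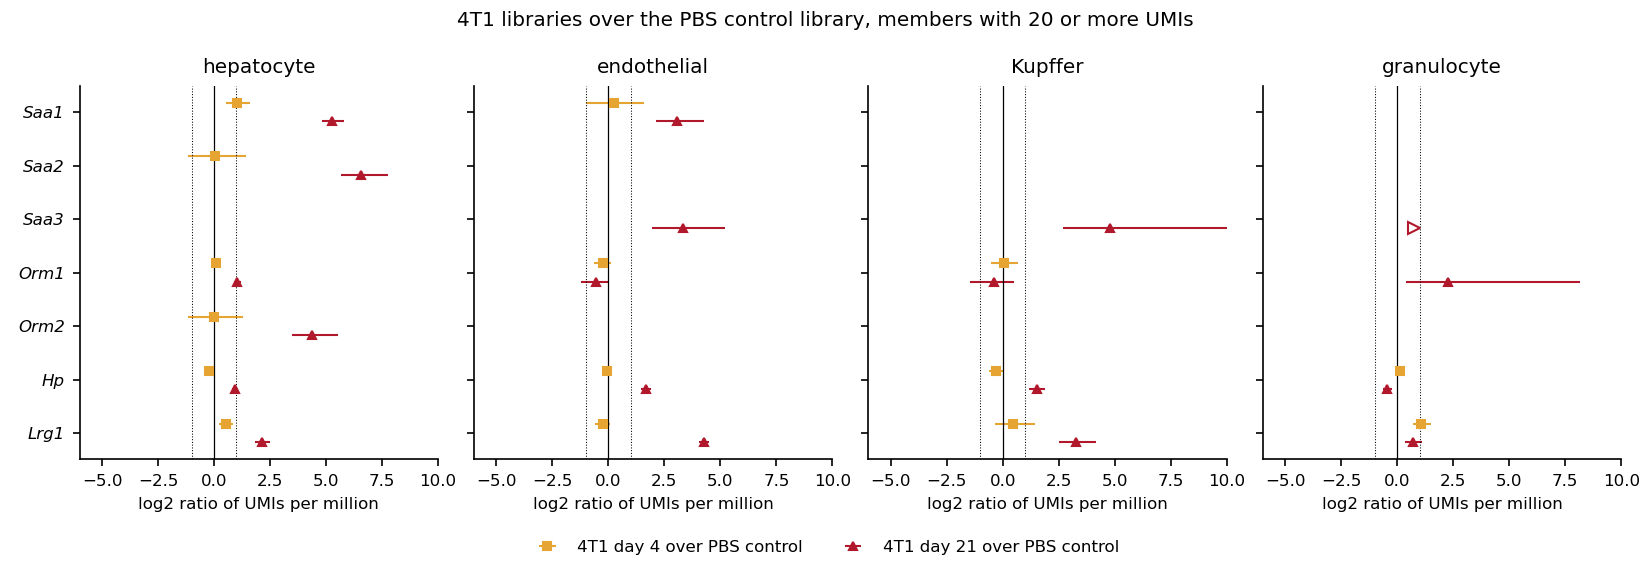
Log2 ratios of CPM over the control library (horizontal axis) for day 4 and day 21 in 4 lineages, with exact 95% intervals cut off at the axis limits and dotted lines at 2-fold; an open mark is a lower bound against a control of 0 UMIs. In hepatocytes the day 21 ratios of Saa1, Saa2 and Orm2 are 5.27, 6.55 and 4.36, and in endothelial cells that of Lrg1 is 4.25.

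Saa3, the serum amyloid made mainly outside hepatocytes, was found in granulocytes and monocytes at day 21. Granulocytes held 0 Saa3 UMIs in the PBS control, 0 at day 4 and 1408 at day 21, a level of 59.0 CPM (56.0 to 62.2). Against a floor of 3 counts in each class sum, the day 21 level was at least 1.67-fold higher than in the control and at least 7.27-fold higher than at day 4. Monocytes held 0, 0 and 546 Saa3 UMIs, a day 21 level of 71.7 CPM (65.9 to 78.0). The gates of 29 monocytes in each of the other libraries allow up to 15.7 in the control and 13.4 at day 4 and were too small for a ratio. B cells of the day 21 library had 2 Saa3 UMIs, a level of 1.20.

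The Saa3 transcripts were concentrated in few cells. At day 21, 196 of 4429 granulocytes held a Saa3 UMI, and the 92 with 5 or more held 86.2% of the UMIs. The highest granulocyte had 438 Saa3 UMIs per 10000. Of 1010 monocytes, 97 held a Saa3 UMI, and the 43 with 5 or more held 82.4%. In B cells 2 of 656 held 1, at a median depth of 1529 UMIs, against 4096 in granulocytes and 6190 in monocytes.

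Granulocytes were split by granule and maturity genes into an early stage with primary granule transcripts, a later stage with secondary granule transcripts and a mature stage. At day 21 these held 445, 1597 and 1942 cells, while 51 of 53 granulocytes in the control and 181 of 188 at day 4 were at the mature stage. Saa3 at day 21 stood at 0.882 CPM at the primary, 5.91 at the secondary and 307 at the mature stage, 51.6-fold (40.7 to 67.5) higher at the mature than at the secondary stage. Between mature cells alone, Saa3 had 0 UMIs in the PBS control, 0 at day 4 and 1273 at day 21. The day 21 level was at least 31.0-fold higher than at day 4 and at least 7.29-fold higher than in the control, against 3 counts in each class sum.

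Orm1, an orosomucoid, had another stage pattern. At day 21 it stood at 10.9 CPM at the primary, 157 at the secondary and 16.9 at the mature stage. The secondary stage was 14.3-fold (11.2 to 18.8) above the primary stage, and the mature stage stood at 0.108 (0.0834 to 0.136) of the secondary one. The day 21 granulocyte with the most Orm1 had 22.0 UMIs per 10000. A Saa3 UMI and an Orm1 UMI were found together in 9 granulocytes, with Saa3 alone in 187 and Orm1 alone in 778. Over all granulocytes Orm1 stood at 11.8 in the PBS control (1 UMI), 48.7 at day 4 (18 UMIs) and 86.1 at day 21 (2054 UMIs), and was 4.87-fold (1.31 to 288) higher at day 21 than in the control. At the mature stage its levels were 14.0, 19.8 and 16.9, and the day 21 over control interval of 0.209 to 48.2 included equality. The granulocyte Orm1 of day 21 was not in proportion to hepatocyte RNA: per 1000 UMIs of Alb, Apoa1, Apoa2, Apoc3 and Ttr, 5 abundant hepatocyte transcripts, granulocytes held 824 Orm1 UMIs and hepatocytes 19.3.

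**Figure D4:**
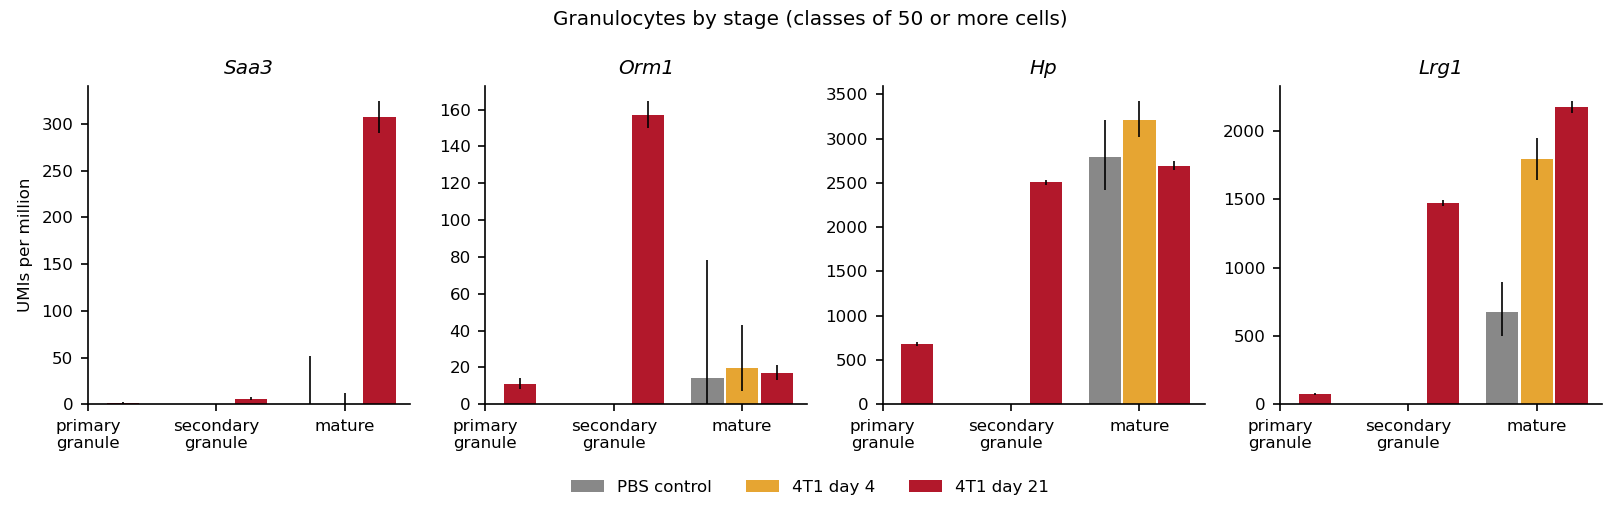
CPM (vertical axis) of 4 members in granulocytes by stage and library, with exact 95% Poisson intervals; only classes of 50 or more cells are drawn. At day 21 Saa3 stands at 307 at the mature stage and Orm1 at 157 at the secondary granule stage.

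Hp and Lrg1, products stored or made by neutrophils, were present in granulocytes of all 3 libraries. Hp stood at 2795 CPM in the PBS control, 3040 at day 4 and 2065 at day 21, and 92.5%, 93.6% and 92.7% of granulocytes held it. At day 21 the primary, secondary and mature stages had 681, 2508 and 2694, so that the secondary stage was 3.68-fold (3.56 to 3.81) above the primary one. In mature cells Hp stood at 2794 in the PBS control, 3215 at day 4 and 2694 at day 21. Its day 21 over control log2 ratio in all granulocytes was -0.44, where the median gene of granulocytes stood at -0.84. With median-of-ratios size factors, which move the levels of all granulocyte genes alike by log2 0.54 in the PBS control, 0.24 at day 4 and -0.81 at day 21, the Hp ratio was 0.91. No direction is therefore given for Hp between these libraries.

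Lrg1 differed between libraries in granulocytes. It stood at 755 CPM in the PBS control (64 UMIs), 1604 at day 4 (593 UMIs) and 1240 at day 21 (29598 UMIs). In mature cells it stood at 674 in the PBS control, 1792 at day 4 and 2174 at day 21, so that both tumour libraries lay above the control. Over all granulocytes the day 21 log2 ratio of Lrg1 was 0.71 over the control and -0.37 over day 4, and the same size factors gave 2.06 and 0.68, the first past 2-fold and the second turned in direction. Mature-stage Lrg1 was 2.64-fold (1.98 to 3.65) higher at day 4 and 3.19-fold (2.43 to 4.38) higher at day 21 than in the control. Within the day 21 library its level was higher at later stages, at 74.6, 1470 and 2174 at the primary, secondary and mature stages, 29.1-fold (26.4 to 32.2) higher at the mature than at the primary stage. Granulocytes with an Lrg1 UMI were 152 of 188 at day 4 and 27 of 53 in the control, and in cells thinned to 1000 UMIs the shares were 72.3% and 34.8%. The share in B cells was 6 of 221 at day 4 and 3 of 322 in the control, with median depths of 2990 and 2892 UMIs against 1593 and 1404 in granulocytes.

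At day 4 over the control, 1 of the 2 measured members was higher in granulocytes, Lrg1 at 2.11-fold (1.64 to 2.80), beside 2.66% of all measured genes. Its log2 ratio of 1.08 in granulocytes was 0.95, under 2-fold, when barcodes of up to 50% mitochondrial UMIs were kept. At the mature stage Lrg1 was again the 1 of 2 that was higher, beside 3.21%. In granulocytes 2 of 6 were higher at day 21 than in the control, Saa3 and Orm1, beside 4.84%, and 0 lower, beside 13.6%. In control granulocytes Saa1, Saa2 and Saa3 had 0 UMIs and Orm1 had 1, so these members were measured through day 21 only. Members with 0 control UMIs could not be counted as lower. There were 2 of 5 higher at the mature stage, Saa3 and Lrg1, beside 1.77%. Saa3 counts there on sums with 0.5 added to each, and its bound over the control in all granulocytes is under 2-fold. Over day 4, Saa3 alone of 6 measured members was higher in day 21 granulocytes, beside 14.1% of genes. In monocytes Hp stood at 335 in the PBS control, 443 at day 4 and 1006 at day 21, and Lrg1 at 83.8 at day 21, with 0 Lrg1 UMIs in the other libraries. The monocyte Hp of day 21 was 26.6-fold (25.9 to 27.3) and its Lrg1 3.69-fold (3.41 to 3.99) the granulocyte ratio to S100a8 and S100a9. Day 21 B cells, taken to lack the members, also stood above this ratio for both genes, as given below beside Kupffer cells.

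In endothelial cells, the cells that line the sinusoids and vessels, Lrg1 was the member with the largest difference between day 21 and the control. It stood at 14.0 CPM in the PBS control (169 UMIs in 2454 cells), 11.7 at day 4 (138 UMIs in 2510 cells) and 267 at day 21 (1149 UMIs in 1456 cells). Day 21 stood alone: its level was 19.1-fold (16.2 to 22.6) that of the control and 22.7-fold (19.1 to 27.4) that of day 4, while day 4 and the control did not differ beyond counting error. Endothelial cells with an Lrg1 UMI were 587 of 1456 (40.3%) at day 21 and 134 of 2454 (5.46%) in the control, although the median depth was 2587 at day 21 and 4782 in the control. Thinned to 1000 UMIs the shares were 21.8% and 1.82%. In B cells 3.05% at day 21 and 0.932% in the control held an Lrg1 UMI, at 1529 and 2892 UMIs per cell.

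The endothelial Lrg1 was not in proportion to either granulocyte or hepatocyte transcripts. At day 21 it was 22.5-fold (21.1 to 23.9) above the granulocyte ratio to S100a8 and S100a9 and 82.0-fold (70.6 to 95.3) above the hepatocyte ratio to the 5 hepatocyte genes. In the control it was 8.20-fold (6.48 to 10.4) above the hepatocyte ratio. Over B cells of the same library it was 19.8-fold (13.3 to 32.5) higher at day 21 and 4.54-fold (1.78 to 25.8) higher in the control. Its day 21 over control log2 ratio of 4.25 ranged from 4.02 to 4.50 over the alternative settings.

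Endothelial cells were further split by zone, since the sinusoids differ along the way from the portal to the central vein. In pericentral cells Lrg1 stood at 12.0 CPM in the PBS control, 8.73 at day 4 and 381 at day 21, and in periportal cells at 17.4, 14.8 and 203. Both zones were far higher at day 21, by 31.4-fold (23.4 to 44.0) over the control in pericentral cells and 11.6-fold (9.46 to 14.5) in periportal cells. The order of the zones differed between libraries. The pericentral level stood at 0.697 (0.479 to 0.986) of the periportal one in the PBS control, 0.600 (0.366 to 0.922) at day 4 and 1.88 (1.66 to 2.14) at day 21. Hp did not show this order, with a pericentral over periportal ratio of 0.837 (0.657 to 1.06) at day 21. None of these zone ratios reached 2-fold, and each comes from a single library. The zones held 393 pericentral and 772 periportal cells at day 21, and 623 and 1368 in the control.

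**Figure D5:**
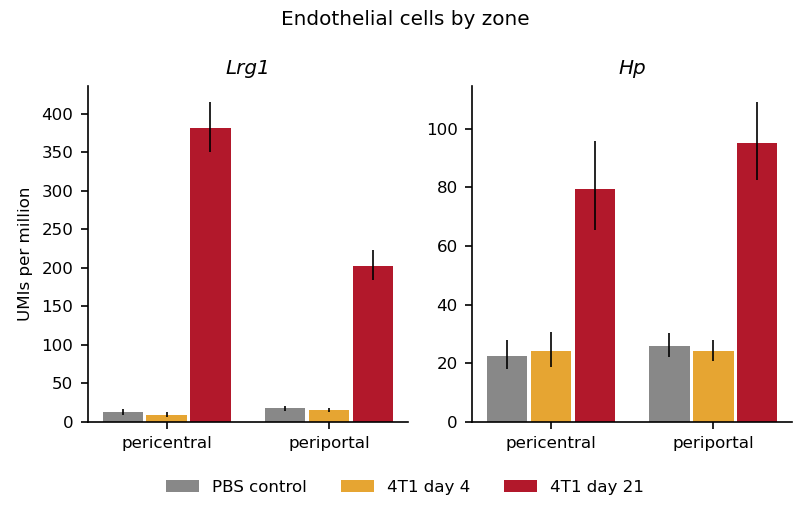
CPM (vertical axis) of Lrg1 and Hp in pericentral and periportal endothelial cells of the 3 libraries, with exact 95% Poisson intervals. At day 21 Lrg1 stands at 381 in pericentral and 203 in periportal cells.

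The other members in endothelial cells lay at low levels. Hp stood at 26.4 CPM in the PBS control, 25.2 at day 4 and 84.7 at day 21, Saa1 at 0.909, 1.10 and 7.89, and Saa3 at 0.413, 0.763 and 4.41. In endothelial cells 4 of 5 measured members were higher at day 21 than in the control (Lrg1, Saa3 at 9.96-fold, Saa1 at 8.42-fold and Hp at 3.21-fold), beside 8.88% of all genes, and 0 lower, beside 4.67%. Saa3 rested there on 5 UMIs in the control and 19 at day 21. With each cell thinned to 1000 UMIs the count of higher members was 2. At day 4 over the control 0 of 4 were higher, beside 1.04%. Saa1 in endothelial cells stood at 0.892 (0.631 to 1.26) of the hepatocyte ratio to the 5 hepatocyte genes, and its level was 1.41-fold (0.689 to 3.48) that of B cells, so neither comparison set it apart from them beyond counting error. Hp was 1.37-fold (1.10 to 1.73) the B cell level at day 21 and 1.01-fold (0.704 to 1.56) in the control. The endothelial Hp ratio of day 21 over the control, a log2 ratio of 1.68, was 3.07 with called doublets kept and 0.79 as a mean over cells, under 2-fold.

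In Kupffer cells, the liver's own macrophages, the members lay at low levels. Hp stood at 31.4 CPM in the PBS control, 25.6 at day 4 and 90.3 at day 21, and Lrg1 at 4.45, 6.30 and 43.4. Saa3 had 1, 3 and 19 UMIs, the day 21 ones in 5 of 700 cells. It was therefore measured over the control only through its day 21 UMIs. In Kupffer cells 3 of 4 measured members were higher at day 21 than in the control (Saa3, Lrg1 at 9.51-fold, 5.62 to 17.9, and Hp at 2.87-fold, 2.24 to 3.69), beside 6.24% of all genes, and 0 were lower, beside 4.31%. At day 4 over the control 0 of 3 were higher, beside 1.39%. Over day 4 the day 21 counts were 5 of 6 in endothelial cells, beside 7.49%, and 4 of 5 in Kupffer cells, beside 4.6%. Kupffer Lrg1 at day 21 was 1.89-fold (1.51 to 2.38) the granulocyte ratio to S100a8 and S100a9, within the interval of B cells (1.30 to 2.97), and Hp was 2.36-fold (2.01 to 2.77), below the 5.43-fold (4.46 to 6.61) of B cells. Hp and Lrg1 were higher at day 21 than in the control in B cells too, 2 of 3 members beside 20.7% of genes, and in the stellate or fibroblast gate, 2 of 3 beside 5.76%. In T cells Hp was higher at day 21, 1 of 2 beside 7.04%, and Lrg1 at day 4, 1 of 3 beside 3.51%, on 18 UMIs against 3 in the control. That log2 ratio of 2.56 for Lrg1 became -1.25 in cells thinned to 1000 UMIs. The part of free RNA in these lymphocyte and stellate values was not tested beyond these ratios.

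Other genes of the acute phase and of its signalling were counted by gene list. In day 21 hepatocytes, 5 of 18 measured acute phase genes outside the members were higher than in the control and 0 lower, beside the 7.58% and 4.16% of all genes, with a median log2 ratio of 0.52 beside 0.21 over all genes. The 5 were Lcn2 and Steap4, an iron-carrier binding protein and a metal reductase, with Saa4, Apcs and Mt2. Lcn2 stood at 774 CPM at day 21 and 58.3 in the control, but granulocytes of the same library had 10311. The lowest ratios were those of Crp and Hamp, at 143 and 1167 at day 21 and 208 and 1886 in the control. Of 8 negative acute phase genes, whose products fall in inflammation, 0 were higher and 0 lower, with a median of -0.40. Of 4 measured cytokine and receptor genes, Il6st, the shared receptor chain of the interleukin 6 family, was higher at 95.3 against 45.3, and Lifr lower at 77.4 against 215. Of 6 signal transducers none passed 2-fold, with Stat3 at 107 at day 21 and 63.4 in the control. At day 4, 0 of 18 acute phase genes were higher in hepatocytes and 1, Mt2, was lower, beside 2.6% and 2.21% of all genes.

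In endothelial cells of the day 21 library, 5 of 9 signal transducers were higher than in the control (Bcl3, Socs3, Pim1, Nfkbiz and Junb) and 1, the NF-kB inhibitor gene Nfkbia, was lower, beside 8.88% and 4.67% of all genes, with a median log2 ratio of 1.17 beside 0.12. Socs3, a target and inhibitor of STAT3 signalling, stood at 355 at day 21 and 54.0 in the control, Bcl3 at 54.1 and 5.54, and Nfkbia at 360 and 1222. Of 9 measured cytokine and receptor genes, 5 were higher, among them Il6st at 2698 at day 21 and 1206 in the control. Osm, for oncostatin M, had 24 UMIs at day 21 and 0 in the control, and Il1b stood at 66.6 and 7.02. Of 19 other acute phase genes, 5 were higher and 3 lower, with Lcn2 at 75.9 and 1.24 and Itih4 at 150 and 13.3. Of 8 negative acute phase genes, 6 were lower. The 5 hepatocyte genes together had 1714 UMIs in the 1456 cells of this gate at day 21 and 14867 in the 2454 of the control. These are raw sums from gates of unequal size and not CPM. Of 12 receptor genes, Fpr1 and Fpr2, for formyl peptide receptors, were higher on 13 and 11 UMIs at day 21, and the haptoglobin-haemoglobin receptor gene Cd163 was lower at 1.86 against 16.5. The TGF-beta co-receptor gene Eng, whose product binds the Lrg1 protein, stood at 1404 and 1950, a log2 ratio of -0.47. Granulocytes of the day 21 library had 628 CPM of Il1b, 41.2 of Osm, 10311 of Lcn2, 87.8 of Fpr1 and 156 of Fpr2, all above the endothelial levels, and 78.7 of Socs3 and 26.5 of Bcl3, below them. The summed granulocyte markers of the endothelial gate stood at 3281 at day 21 and 24.4 in the control, and their part in these values was not tested.

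In Kupffer cells at day 21, 2 of 8 cytokine and receptor genes were higher than in the control, Il1b at 418 against 153 and Osm at 8.21 against 3.06, and 0 were lower, beside 6.24% and 4.31% of all genes. Il6, named here after its values were seen, had 19 UMIs there at day 21 and 24 in the control, levels of 11.1 and 6.68. Of 9 signal transducers Socs3 and Bcl3 were higher, at 23.4 and 24.6 at day 21 and 3.34 and 7.79 in the control. Of 19 other acute phase genes 3 were higher, Lcn2, Il1rn and Steap4, and 6 lower, with Hamp and Cd14 at the bottom. The 6 were Fga, Fgb, Hamp, Mt1, Mt2 and Cd14. Of 7 measured negative acute phase genes, 0 were higher and 6 lower, at a median log2 ratio of -1.86. Granulocytes of the day 21 library had 628 CPM of Il1b, 41.2 of Osm, 78.7 of Socs3, 26.5 of Bcl3, 10311 of Lcn2 and 92.9 of Steap4, against 10.2 of Il1rn. Granulocyte markers in the Kupffer gate summed to 6647 at day 21 and 49.3 in the control, and their part in these values was not tested. In granulocytes at day 21, Lcn2 and Lbp were higher and 7 of 17 acute phase genes lower, beside 4.84% and 13.6% of all genes. The 7 were Fga, Fgb, Fgg, Hpx, Hamp, Cd14 and Il1rn. Of 6 measured negative acute phase genes, Alb among them, 6 were lower in granulocytes, at a median log2 ratio of -3.73. The part of free hepatocyte RNA in these granulocyte and Kupffer values was not tested. Of 9 signal transducers 7 were lower there, in libraries whose median gene was itself lower by the -0.84 given above and whose granulocyte stages differed.

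The genes with the profile most like each member, by Pearson correlation of log2(CPM + 1) over 28 lineage and library sums, are given as a description over 11960 genes. The points share their libraries and depths. Candidates needed 200 or more UMIs, which Orm2 with 160 did not have. Among them Saa1 and Saa2 were closest to each other at r = 0.877, and their other neighbours were genes known from hepatocytes such as Fgl1, Bhmt2 and Akr1d1. Orm2 was closest to Saa2 at 0.905 and Saa1 at 0.887. Orm1 was closest to Adtrp at 0.906, Cxadr, Slc22a30, Nr0b2 and Aspg. Saa3 was closest to F13a1 at 0.766, Lmo1, Ctsg, Mpo and Cldn15. Ctsg and Mpo were markers of the primary granule stage, and these sums did not split granulocytes by stage. Within day 21 granulocytes Saa3 stood at 0.882 CPM at the primary and 307 at the mature stage. Hp was closest to Wfdc21 at 0.964 and had Lrg1 among its nearest 5 at 0.914, and Lrg1 was closest to Hp, followed by Wfdc21 at 0.913. By rank correlation, 4 of the 5 nearest genes of Lrg1 and 2 of those of Hp were again among the nearest 5, and none for the other members.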

How the data were processed

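Droplet 3' v2 libraries of liver non-parenchymal cells were deposited by the authors as UMI counts per gene and barcode, raw whole numbers with no normalization. Per the file headers the matrices were written by software version 3.1.0, and per the submitters' processing notes the genome build is mm10. How many mice were pooled is not stated.

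From the deposited counts, barcodes were kept when they had 200 or more genes and mitochondrial UMIs made up no more than 20%. Hepatocytes were taken at up to 50%, a limit set after seeing that 20% left 49 in the control. Doublets were called with Scrublet at an expected 0.8% per 1000 deposited barcodes and removed, which took 0.845% of the PBS barcodes, 1.797% of those 4 days after 4T1 cells and 6.86% of those after 21 days. At the 50% limit Scrublet called under 0.5% in the control and day 4 libraries, so the expected share with the highest doublet scores was removed there, 5.185% and 7.341%, and 6.318% was called at day 21. A cell joined a lineage with 3 or more of its 10 markers detected and at least 1 more than for any other lineage, and a hepatocyte had 5% or more of its UMIs in hepatocyte markers. UMIs were summed by lineage and library and divided by the total and scaled to 1000000. Levels have exact Poisson intervals, shares Clopper-Pearson intervals and ratios conditional binomial intervals, at 95%, ratios to source transcripts log-normal ones, with 0.5 added to each sum for fitted ratios. Ratios were made for lineages of 50 or more cells in both libraries. The smallest detectable sum was taken as 3 counts. On simulated counts, 4-fold higher and lower genes were called in 100% and 100% of cases in hepatocytes and endothelial cells, at day 21 over the control, and in 95% and 62% in granulocytes at day 21 over day 4. Unchanged genes were called in 4.64% of cases in hepatocytes, 0.496% in endothelial cells and 1.31% in granulocytes. The changed genes were drawn from those with 100 or more UMIs, while a call needed 20. The simulated counts had Poisson error only, with no variation between cells or libraries. These rates therefore do not cover sparser genes or such variation.

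The members and gene lists were chosen with earlier results of these data known. Named genes are the members, in each described list the 2 highest and 2 lowest ratios, genes counted as higher or lower where few, and the 5 genes most like each member. Il6 and the genes set beside Saa3-rich cells were named after their values were seen. Pairs of libraries shared 13, 22 and 32 barcode sequences. Cells were handled with Scanpy 1.11.5 and leidenalg 0.10.2, statistics with SciPy 1.17.1, tables with pandas 2.3.3 and NumPy 2.4.6, sequences with Biopython 1.88 and figures with matplotlib 3.10.9, all under Python 3.11.15. Alternatives changed the filters, doublet removal, gate, scaling, depth and reference genes.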

Additional observations from a re-analysis of the deposited data

Results flagged for a closer look

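Barcodes outside the lineages were removed by the filters, removed as called doublets or put in no gate. At day 21 they held Saa2, Saa3, Hp and Lrg1 above the level in the barcodes outside the lineages of the control. There were 2897 such barcodes at day 21 and 1931 in the control. In the main analysis, 732 barcodes were called doublets at day 21 and 40 in the control. The make-up of this set therefore differed between the libraries, and the part of doublets in these values was not tested. Saa2 stood there at 10.3 CPM at day 21 and 0.243 in the control, and Saa3 at 40.2 and 0.243. Hp stood at 745 and 246, and Lrg1 at 415 and 15.3. Orm1 went the other way, at 30.5 (27.05 to 34.2) at day 21 and 61.8 (54.4 to 69.9) in the control. Saa1 stood at 12.0 and 9.73 and Orm2 at 2.34 and 2.92, both with overlapping intervals. Cells of known lineages among these barcodes were not counted, and their part in these values was not tested.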

How the results depend on the processing

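Of 68 counts of members over the alternatives, 62 stayed within 1.5 times the main count, 6 moved and 0 turned. The count at day 4 over the control in hepatocytes, 1 in the main analysis, was 0 with lineages from clusters at the 20% limit, 0 with median-of-ratios size factors and 0 with each cell thinned to 1000 UMIs. That in granulocytes, also 1, was 0 at the limit of 50% mitochondrial UMIs. At day 21 over the control, thinning to 1000 UMIs gave 3 in hepatocytes in place of 5 and 2 in endothelial cells in place of 4. Of 923 other values, 776 stayed within the interval of the main value, 142 moved outside it, and 5 that were 2-fold or more with an interval clear of equality turned: Lrg1 in T cells at day 4 over the control, a log2 ratio of -1.25 when thinned, Hp in plasmacytoid dendritic cells at day 21 over day 4, at -0.27 from clusters and -0.27 with a margin of 2 markers, and Saa2 over T cells in place of B cells, at -0.45 in granulocytes and -1.01 in monocytes. A further 63 values under 2-fold took the other sign, as did 2 for Saa1 in granulocytes that had an interval reaching equality. Among them, with median-of-ratios size factors the day 21 log2 ratios in granulocytes became 0.91 in place of -0.44 for Hp over the control, and over day 4 0.49 in place of -0.56 for Hp and 0.68 in place of -0.37 for Lrg1. Orm2 in hepatocytes at day 4 over the control was -0.02, and 1.74 when thinned. The cause of these changes was not tested. Hepatocyte ratios over the control could not be made at 500 or more genes, at the 20% limit or with the gate at 10%. Granulocyte ratios over the control could not be made at 500 or more genes. In each case under 50 control cells were left. With the gate at 10%, hepatocyte ratios of day 21 over day 4 could not be made either, as a library had under 50 cells. The hepatocyte folds over day 4 were therefore not checked at that gate. No paired analysis was possible because each group is 1 library. The limits on hepatocytes and on the hepatocyte gate, and S100a8 and S100a9 as a reference, were chosen after seeing the data. The 53 granulocytes and 29 monocytes of the control limit what could be seen of rare Saa3 cells there.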

Other observations

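The cells richest in Saa3 were compared with the rest of their class in the day 21 library, a comparison chosen after seeing the data and made within 1 library. The genes given here were named after their values were seen. The 43 monocytes with 5 or more Saa3 UMIs had a median of 4665 UMIs, against 6401 in the other 967. Lrg1 stood at 549 CPM in the 43 and 70.9 in the others, 7.77-fold higher, and 31 of the 43 held it. Il1b, for interleukin 1 beta, stood at 889 and 171, Arg2, for arginase 2, at 170 and 28.2, and Dusp6, for a phosphatase of MAP kinases, at 121 and 20.4. Rfx2, Mtmr10 and Igfbp6, with folds of 7.86, 7.05 and 6.32, rest on 9, 9 and 11 UMIs in the 43 cells. At the mature granulocyte stage, 84 cells with 5 or more Saa3 UMIs were set against 1858 others, and Atf3 stood at 104 and 15.7 on 13 UMIs in the 84 cells.

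The cholangiocyte gate had an Hp level of 1410 CPM at day 21 on 178 UMIs in 21 cells, against 12.9 at day 4 in 19 cells. These gates are too small for a ratio.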
